A study of Mus musculus with 54 samples.

Results

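The 10 genes followed here mark macrophages, and were measured in the hearts and livers of mice with altered fidelity of mitochondrial protein synthesis. They are Adgre1, Cd68, Clec4f, Cd5l, Marco, Timd4, Vsig4, Trem2, Gpnmb and Spp1. They were chosen by name as general macrophage markers (Adgre1 and Cd68), markers of Kupffer cells, the resident macrophages of the liver (Clec4f, Cd5l, Marco, Timd4 and Vsig4), and genes of lipid-associated macrophages (Trem2, Gpnmb and Spp1). All 10 were found among the 54356 genes listed for each tissue. The mice were males on a C57BL/6 background, 20 weeks old, and all of them, controls included, ate a high-fat diet (HFD) with 42% of its energy from fat from 6 weeks of age. The 3 genotypes compared were the wild type Mrps12+/+, homozygous Mrps12ep/ep, whose substitution in the mitochondrial ribosomal protein MRPS12 makes mitochondrial translation error-prone, and homozygous Mrps12ha/ha, whose substitution makes it hyper-accurate. A mutant mouse carries its allele in every cell of the body, in macrophages as well as in hepatocytes and cardiomyocytes. There were 3 mice of each genotype, and RNA was taken from whole hearts and whole livers.

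Macrophages settle in most organs before birth and are later joined by cells from blood monocytes. In the liver the Kupffer cells line the sinusoids, where they take up bacteria, dying cells and lipoproteins from the blood. Their identity genes encode receptors for this uptake: Clec4f is a C-type lectin, Marco a scavenger receptor, Timd4 a receptor for the phosphatidylserine of dying cells and Vsig4 a receptor for complement, while Cd5l is a secreted protein. In fatty tissue a further macrophage state appears with Trem2, a lipid-sensing receptor, Gpnmb, a glycoprotein of phagocytes filled with lysosomes, and Spp1, the secreted phosphoprotein osteopontin, which bile duct cells also make. The heart has resident macrophages of its own that share Adgre1 (F4/80), Cd68, Timd4 and Vsig4 with those of the liver.

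Across the 9 livers the levels of the 5 Kupffer cell genes were closely correlated, Gpnmb was at 4 reads in each Mrps12ha/ha liver, and Spp1 was lower in each Mrps12ha/ha heart than in any other heart. Over the 6 comparisons (Mrps12ep/ep against wild type, Mrps12ha/ha against wild type and Mrps12ha/ha against Mrps12ep/ep in each tissue) the members gave 57 tests with limma, of which 0 had an adjusted p under 0.05, 8 (14.0%) had an unadjusted p under 0.05 and 10 (17.5%) had groups that did not overlap. Over all genes in the 6 comparisons these shares were 12.0% and 16.0%, close to those of the members. With limma-voom on the recovered reads 0 had an adjusted p under 0.05 as well. The lowest adjusted p was 0.155, for Gpnmb in Mrps12ha/ha against wild-type livers. The wild-type mice serve both mutants, so that the comparisons with wild type share their controls.

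Values are normalized counts, that is, reads divided by a size factor of the library, and a log2 fold change is a difference of mean log2(normalized count + 1), which understates the change of low genes. The hearts held 11202868 to 51480349 reads on genes and the livers 21238117 to 81518199. In the shallowest heart, Mrps12ha/ha mouse 2, 1 read was worth 3.02 normalized counts. Hearts were rich in Myh6 and livers in Alb, but the hearts also held 65.5 to 9895.2 normalized counts of the hepatocyte gene Alb, the liver of Mrps12ha/ha mouse 3 held 4288.9 of the cardiomyocyte gene Myh6, and the livers of wild-type mice 1 and 2 held 4553.2 and 6323.4 of the muscle gene Acta1. The liver of wild-type mouse 3 stood apart with a summed level of 7 acute phase genes of 1605000, where the other 8 livers lay between 176700 and 232500. Mrps12 itself was at 1078 ± 67.9 (SD, n = 3) in wild-type hearts, 1161 ± 117 in Mrps12ep/ep and 1271 ± 165 in Mrps12ha/ha hearts, and a substitution is not read from a gene's level. As the RNA came from whole organs, fewer cells of a type and less RNA per cell cannot be told apart in any of the values.

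Per kilobase of exon, Cd5l and Clec4f were the strongest members in the liver, and the general markers Cd68 and Adgre1 were the strongest in the heart. The medians over 9 livers, in normalized counts per kilobase, were 2475 for Cd5l, 2042 for Clec4f, 1011 for Vsig4, 982.4 for Spp1 and 560.5 for Cd68. Below them came Marco at 354.8, Adgre1 at 244.8, Timd4 at 179.6, Trem2 at 41.64 and Gpnmb at 7.156. The ranges over the livers overlapped between every pair of neighbours in this order. In the heart Cd68 led with a median of 266.6 per kilobase and a lowest heart of 196.3, above the highest heart of Adgre1, 133.8. Adgre1 had a median of 74.55, Trem2 44.18, Gpnmb 27.58, Vsig4 25.98 and Timd4 25.08, and Clec4f 13.64, Spp1 9.041, Cd5l 5.452 and Marco 1.87 came last. Neighbours in the heart from Adgre1 downwards overlapped. The tissues were normalized apart, so levels across them are given in RPM, reads scaled to a library of 1000000, and without a test. Clec4f had a median of 98.03 RPM in livers and 1.051 in hearts, and Cd5l had 95.44 and 0.3346. Cd68 was alike in both, at 13.94 and 10.38, while Gpnmb had 0.6458 in livers and 3.846 in hearts.

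The members that vary together in the liver are encoded on 5 chromosomes. In GRCm38 coordinates of the annotation used for the files, Clec4f lies on chr6:83644542-83656187, Cd5l on chr3:87357881-87371073, Marco on chr1:120474538-120505024, Timd4 on chr11:46810800-46844332 and Vsig4 on chrX:96247203-96293438. The 250 bases before their RefSeq start sites (GRCm38.p6) are shown because the levels of these genes go together, read 5′ to 3′ on the strand of the gene. Capitals mark GAGGAA or its complement TTCCTC, the core of the site of PU.1, the master factor of macrophages, and TGACCT or its complement AGGTCA, the half-site of nuclear receptors.
Clec4f, chr6:83656117-83656366, minus strand: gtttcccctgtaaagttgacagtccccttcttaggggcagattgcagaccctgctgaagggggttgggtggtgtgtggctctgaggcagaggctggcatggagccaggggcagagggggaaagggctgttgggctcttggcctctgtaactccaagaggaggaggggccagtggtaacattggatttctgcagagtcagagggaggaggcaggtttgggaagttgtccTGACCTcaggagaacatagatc
Cd5l, chr3:87357631-87357880, plus strand: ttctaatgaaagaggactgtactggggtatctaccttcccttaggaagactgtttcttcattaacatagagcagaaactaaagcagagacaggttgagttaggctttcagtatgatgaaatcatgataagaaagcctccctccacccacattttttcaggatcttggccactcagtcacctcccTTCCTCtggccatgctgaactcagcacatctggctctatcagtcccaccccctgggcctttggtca
Marco, chr1:120505025-120505274, minus strand: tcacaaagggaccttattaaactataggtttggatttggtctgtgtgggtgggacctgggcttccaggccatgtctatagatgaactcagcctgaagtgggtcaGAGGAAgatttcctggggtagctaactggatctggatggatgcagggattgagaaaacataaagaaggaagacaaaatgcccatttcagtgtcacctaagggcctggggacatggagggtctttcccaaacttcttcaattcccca
Timd4, chr11:46810549-46810798, plus strand: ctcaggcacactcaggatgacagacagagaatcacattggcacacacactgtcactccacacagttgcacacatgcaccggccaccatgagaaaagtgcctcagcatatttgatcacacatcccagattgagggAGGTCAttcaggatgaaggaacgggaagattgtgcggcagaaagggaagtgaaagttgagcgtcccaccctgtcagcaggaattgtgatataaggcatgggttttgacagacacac
Vsig4, chrX:96293439-96293688, minus strand: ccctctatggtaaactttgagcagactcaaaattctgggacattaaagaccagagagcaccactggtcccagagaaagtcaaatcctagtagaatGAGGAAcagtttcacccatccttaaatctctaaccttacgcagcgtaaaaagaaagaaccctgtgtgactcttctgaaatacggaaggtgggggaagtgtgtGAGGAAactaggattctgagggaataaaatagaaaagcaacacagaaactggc

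Cd5l and Marco held GAGGAA once and Vsig4 at 2 places, whereas Clec4f and Timd4 held TGACCT once and no GAGGAA in these windows. Of the 9 members with a RefSeq start site in the table used, 6 held GAGGAA and 3 held TGACCT, the latter being Clec4f, Timd4 and Trem2. Spp1 has 2 start sites and was counted by gene, as only 1 of its windows held GAGGAA. The shares that follow are per window. Windows of the same length before 32851 start sites held the motifs in 23.3% and 14.0% of cases, and the letters do not show that a factor binds. Adgre1 was not matched. The other members lie on chr17:57358691-57483527 (Adgre1), chr11:69664213-69666153 (Cd68), chr17:48346401-48354147 (Trem2), chr6:49036546-49070929 (Gpnmb) and chr5:104435118-104441050 (Spp1). A further gene model, Gm42793, overlaps Spp1 on the same strand, so reads could be split between them.

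Taken over the 9 livers, the Kupffer cell genes varied together, though not in every step from one liver to the next. The 10 pairs among Clec4f, Cd5l, Marco, Timd4 and Vsig4 had Pearson correlations of 0.89 to 0.99 (median 0.92) on the log2 scale, and adding Adgre1 gave 15 pairs with the same range. These are descriptions over 9 livers, and the genes of a liver share its library, depth and dissection, so no p is given. Each genotype held livers above and below the mean. Expressed as the mean of the standardized levels of the 5 genes, in SD units, wild-type livers 1 to 3 were at 1.19, -1.41 and -0.93. Mrps12ep/ep livers were at 0.64, -0.11 and 0.91, and Mrps12ha/ha livers at -0.22, -1.03 and 0.95. The range over the wild-type livers took in all the others.

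**Figure D1:**
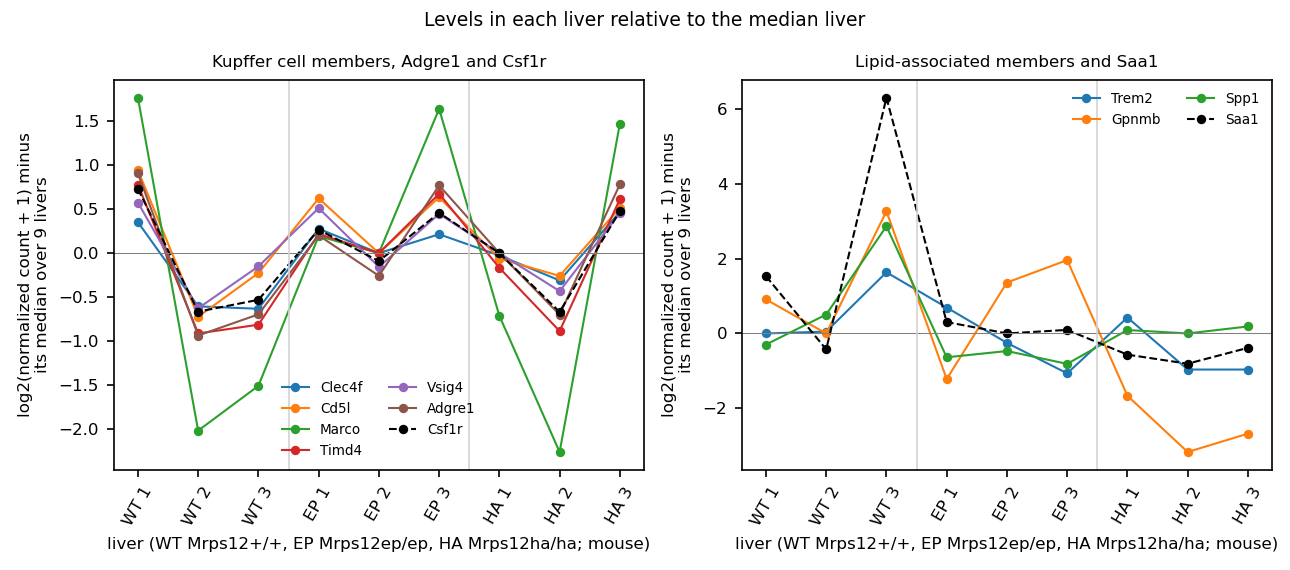
Level of each gene in each liver relative to its median over the 9 livers, on a log2 scale, for the Kupffer cell genes with Adgre1 and Csf1r (left) and for Trem2, Gpnmb, Spp1 and the acute phase gene Saa1 (right); lines join the points of 1 gene and imply no order among mice. The curves on the left run close to one another with Marco the widest, and on the right wild-type liver 3 stands above the others while Gpnmb is low in the 3 Mrps12ha/ha livers.

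Marco, the scavenger receptor, moved most and Clec4f least. Marco was at 2323.5, 168.2 and 239.7 normalized counts in the wild-type livers, 781.6, 683 and 2128.4 in the Mrps12ep/ep livers, and 416.5, 142 and 1893.4 in the Mrps12ha/ha livers. A single liver of wild type, 1 of Mrps12ep/ep and 1 of Mrps12ha/ha were thus far above the rest, and the genotypes overlapped throughout. The highest liver had 16.36 times the Marco of the lowest, and the SD within genotypes was 1.68 on the log2 scale, which put Marco at percentile 98.2 of the genes tested in the liver, where the median SD was 0.25. Clec4f was at 6441.5, 3318.6 and 3257 in wild-type livers, 6114.7, 5046.3 and 5854.9 in Mrps12ep/ep livers, and 4955.2, 4070.6 and 6979.7 in Mrps12ha/ha livers, a range of 2.143 times. In proportion to Clec4f, Marco was at 36.07%, 5.068% and 7.36% in wild-type livers, 12.78%, 13.53% and 36.35% in Mrps12ep/ep livers and 8.405%, 3.488% and 27.13% in Mrps12ha/ha livers. The ratio was therefore not the same from liver to liver.

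The remaining Kupffer cell genes lay between these in spread. Timd4 ranged 3.238 times over the livers, from 207 in wild-type liver 2 to 670.2 in wild-type liver 1. Cd5l ranged 3.17 times, from 3053.4 to 9678.7, and Vsig4 2.3 times, from 937.2 to 2155.6, with the lowest and highest values in the same 2 livers as Timd4. Adgre1, a general macrophage marker, was also lowest in wild-type liver 2, at 414, and highest in wild-type liver 1, at 1486. Cd68, a lysosomal glycoprotein, ran from 474.4 in Mrps12ha/ha liver 2 to 1280.3 in wild-type liver 1.

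Outside the members, the 5 genes whose levels were most like the mean standardized Kupffer cell level over the 9 livers were Csf1r, the receptor for colony-stimulating factor 1 (r = 0.988), Cfp, properdin of the complement system (0.986), Adgre4, a relative of Adgre1 (0.977), Sdc3 (0.975) and Lyz2, macrophage lysozyme (0.973). Among the 20 other macrophage genes listed the median r with this level was 0.83 (0.30 to 0.99). It was 0.72 for 7 T cell markers, 0.53 for 12 other Kupffer cell genes, 0.42 for endothelial markers and 0.31 for hepatocyte markers. The median r was 0.52 for monocyte genes, 0.42 for cardiomyocyte markers and 0.1 for 5 erythroid genes (-0.06 to 0.54). The share that T cells or the amount of blood had in the pattern was not tested.

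**Figure D2:**
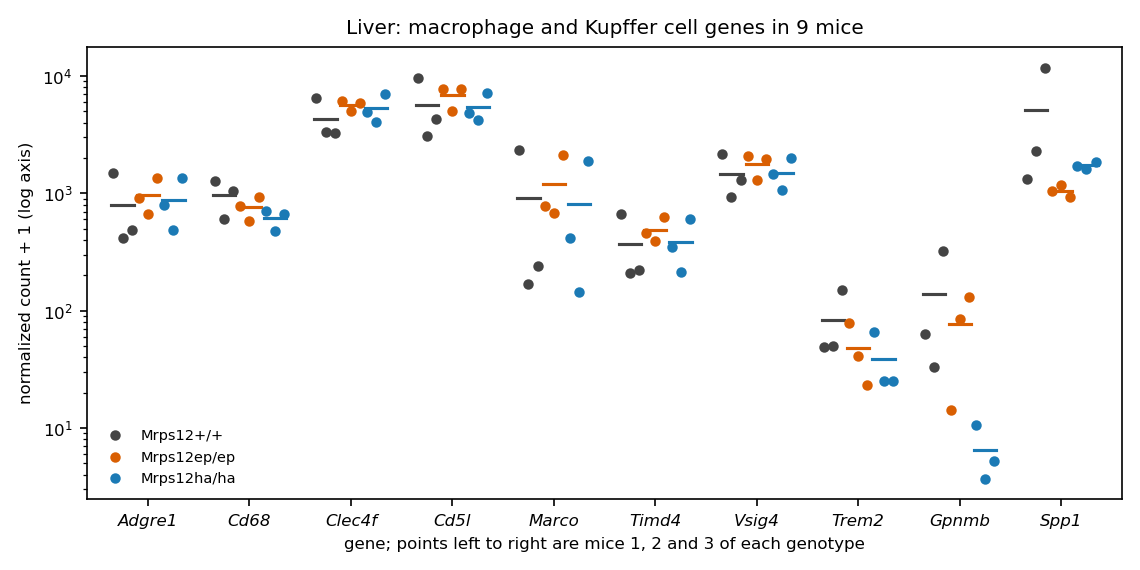
Normalized count + 1 of the 10 genes in the livers of 9 mice on a log axis, 3 points per genotype from mouse 1 (left) to mouse 3 (right), with a bar at the arithmetic mean. The genotypes overlap for the 7 genes from Adgre1 to Vsig4, Gpnmb lies between 2.7 and 9.5 normalized counts in Mrps12ha/ha livers, and Spp1 reaches 11817.3 in wild-type liver 3.

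In Mrps12ep/ep against wild-type livers no member passed the test, and Spp1 was the one whose groups did not overlap. Spp1 was at 1317.4, 2298.9 and 11817.3 in wild-type livers and at 1040.3, 1168.7 and 921.1 in Mrps12ep/ep livers. Every Mrps12ep/ep liver lay below every wild-type liver, although by little for wild-type mouse 1. The log2 fold change was -1.67 (SE 0.63, 95% interval -3.08 to -0.25), with an unadjusted p of 0.026 and an adjusted p of 0.47 in limma. Without wild-type liver 3 it was -0.74. That liver also held the most Trem2 (150), Gpnmb (319.6) and acute phase RNA, and the part of the acute phase state in these values was not tested. The 5 Kupffer cell genes had log2 fold changes of 0.33 (Vsig4) to 1.20 (Marco), with intervals that all spanned 0, that of Marco running from -1.29 to 3.69. Trem2 had -0.77, Gpnmb -0.69 and Cd68 -0.32. Of the 10 members 6 were higher and 4 lower, with a median of 0.38 against -0.01 over all genes tested. Over the 15314 genes tested in the liver 0.00653% passed the adjusted threshold and 9.74% had an unadjusted p under 0.05, beside 0 and 1 of the 10 members. All 3 Mrps12ep/ep livers lay above the wild-type livers in 6.49% of genes and below them in 6.28%, beside 0 and 1 members.

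In Mrps12ha/ha livers Gpnmb was at the lowest levels of the 9 livers. It was at 9.5, 2.7 and 4.2 normalized counts there, which were 4 reads in each liver, against 61.6, 32.3 and 319.6 in wild-type and 13.3, 84.6 and 128.7 in Mrps12ep/ep livers. All 3 Mrps12ha/ha livers thus lay below all 6 others, and the nearest was Mrps12ep/ep liver 1. Against wild type the log2 fold change was -3.90 (SE 0.99, 95% interval -6.12 to -1.68; unadjusted p 0.00311 and adjusted p 0.155 in limma). Pooled over the livers, 12 reads against 520 gave a ratio of 0.0316, with an exact 95% interval of 0.0162 to 0.0556 that covers counting error only and not the spread between mice. Over 16 alternative settings, leaving out any 1 mouse among them, the log2 fold change lay between -4.59 and -2.88 and the adjusted p between 0.0907 and 0.416. The exact permutation test of 3 against 3 mice cannot give a p below 0.1.

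The other members did not separate Mrps12ha/ha from wild-type livers. Trem2 was at 64.3, 23.9 and 23.9 in Mrps12ha/ha livers and at 47.6, 49.3 and 150 in wild-type livers, a log2 fold change of -1.06 (95% interval -2.45 to 0.32). Spp1 was at 1725.5, 1619 and 1843.4, within the wild-type range, and its log2 fold change of -0.93 became -0.011 without wild-type liver 3. Cd68 had -0.62 (-1.27 to 0.03, adjusted p 0.378 in limma). The 5 Kupffer cell genes and Adgre1 were at 0.07 to 0.34, with intervals that reached from -2.40 to 2.57 for Marco and from -0.28 to 0.95 for Clec4f. Leaving out 1 wild-type liver decided the sign for the group: the median of the 10 members, 0.07, was 0.47 without wild-type liver 1 and -0.46 without wild-type liver 2. Of the genes tested 0.00653% passed the threshold and 14.1% had an unadjusted p under 0.05, beside 0 and 1 members. The share with all Mrps12ha/ha livers above wild type was 10.0% and below it 9.81%, beside 0 and 1 members.

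Between the mutants, 9 of the 10 members had lower means in Mrps12ha/ha livers, and their median log2 difference was -0.30 against -0.002 over all genes. None passed the test. Gpnmb had -3.21 (SE 0.99, 95% interval -5.42 to -0.99, adjusted p 0.46 in limma), with 12 reads against 192 and a ratio of 0.0683 (exact 95% interval 0.0347 to 0.122, counting error only). Spp1 was the exception and was higher in each Mrps12ha/ha liver, with means of 1729 ± 112 against 1043 ± 124 (SD, n = 3). Its log2 fold change was 0.73 (95% interval -0.68 to 2.15, adjusted p 0.806 in limma). In this comparison 0.00653% of genes passed the threshold, 8.62% had an unadjusted p under 0.05, 8.82% were higher in every Mrps12ha/ha liver and 9.01% lower in every one. Beside these shares stood 0, 1, 1 and 1 of the 10 members. The 4 bile duct markers tested split, with 2 higher and 2 lower in Mrps12ha/ha livers (median -0.14). Epcam, an adhesion protein of epithelia, was higher in every Mrps12ha/ha liver, at 62.6 ± 8.72 against 32.93 ± 3.02, while the transcription factor Sox9 was lower in every one, at 140.4, 189.7 and 195.5 against 199.9, 213.2 and 319.6. The part of bile duct cells in the level of Spp1 was not tested.

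The levels of the lipid-associated members over the 9 livers were led by wild-type liver 3. Their mean standardized level was 1.97 there and between -0.85 and 0.16 in the other 8 livers. The genes most like this level were Myo1d (r = 0.988), Tmed5 (0.979), Tapt1 (0.978), Tgm2, a transglutaminase (0.977), and Gas2l1 (0.975), over 9 livers of which 1 carries the pattern. The median r was 0.92 with 7 acute phase genes and 0.69 with 11 further genes of lipid-associated macrophages. With endothelial markers it was -0.84 and with hepatocyte markers -0.79. Against the Kupffer cell genes, the 15 pairs ran from -0.68 to 0.14 (median -0.34).

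Further genes of lipid-associated macrophages, monocytes and chemokines sat lower in the mutant livers, again without a call. Of the 11 further genes of lipid-associated macrophages (tetraspanins, lysosomal enzymes and lipid handlers such as Cd63, Ctsb and Lpl) 10 were lower in Mrps12ep/ep and 11 in Mrps12ha/ha than in wild-type livers, with medians of -0.36 and -0.55. Without wild-type liver 3, 8 were lower in each, with medians of -0.24 and -0.22. Adipocyte markers, a list chosen after the values were seen, ran the same way, with 4 of 4 lower in both mutants and medians of -3.50 in Mrps12ep/ep and -4.02 in Mrps12ha/ha, 3 of them with an unadjusted p under 0.05 in each. Their sum was 598.2 to 7781 in wild-type, 214.8 to 1116 in Mrps12ep/ep and 172 to 1428 in Mrps12ha/ha livers. Lpl is also an adipocyte gene, and the part of attached fat in the values was not tested. Mmp12, a macrophage elastase, had the lowest p of these in Mrps12ha/ha livers, at 33.6 ± 19.8 against 212 ± 168 (log2 fold change -2.55, adjusted p 0.167 in limma). All 7 monocyte genes tested had lower means in both mutants, with medians of -0.33 in Mrps12ep/ep and -1.09 in Mrps12ha/ha. The 8 monocyte genes listed summed to 1251, 349.4 and 725.7 in wild-type livers. The sums were 390.3 to 521.7 in Mrps12ep/ep and 324.2 to 406.9 in Mrps12ha/ha livers, so wild-type liver 2 lay below every Mrps12ep/ep liver. Ccr2, the receptor that brings monocytes into tissue, was at 60.4 ± 20.3 in Mrps12ha/ha and 162.2 ± 68.7 in wild-type livers (-1.36, adjusted p 0.226 in limma). Its ligand Ccl2 was at 22.6 ± 1.74 against 89.3 ± 29.3 (-1.89, adjusted p 0.111 in limma), every Mrps12ha/ha liver below every wild-type liver. In Mrps12ep/ep livers Ccl2 was at 42.4 ± 17.8 (-1.09, adjusted p 0.456 in limma).

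Other genes of Kupffer cells and macrophages split between directions. Of 12 further Kupffer cell genes, which include regulators such as Nr1h3, Id3 and Spic, 11 had higher means in Mrps12ep/ep than in wild-type livers (median 0.18) and 8 in Mrps12ha/ha livers (median 0.25). The adjusted threshold was passed by 0 of them in limma, and an unadjusted p under 0.05 was reached by 2 in the first comparison, both higher, and by 2 higher and 1 lower in the second. Without wild-type liver 2 the count in Mrps12ep/ep livers was 7 of 12, and the median in Mrps12ha/ha livers was 0.10 without wild-type liver 2 or 3. Fcna, a ficolin of the complement lectin pathway, was at 2018 ± 288 in Mrps12ha/ha against 1243 ± 452 in wild-type livers, all above (0.76, adjusted p 0.222 in limma). For the 20 macrophage genes, 14 were higher and 6 lower in Mrps12ep/ep livers (median 0.06), and 6 were higher and 14 lower in Mrps12ha/ha livers (median -0.12). Without wild-type liver 1 the medians became 0.50 and 0.28, and without wild-type liver 2 they became -0.22 and -0.49. No direction can be given for macrophage genes in the liver on these mice.

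**Figure D3:**
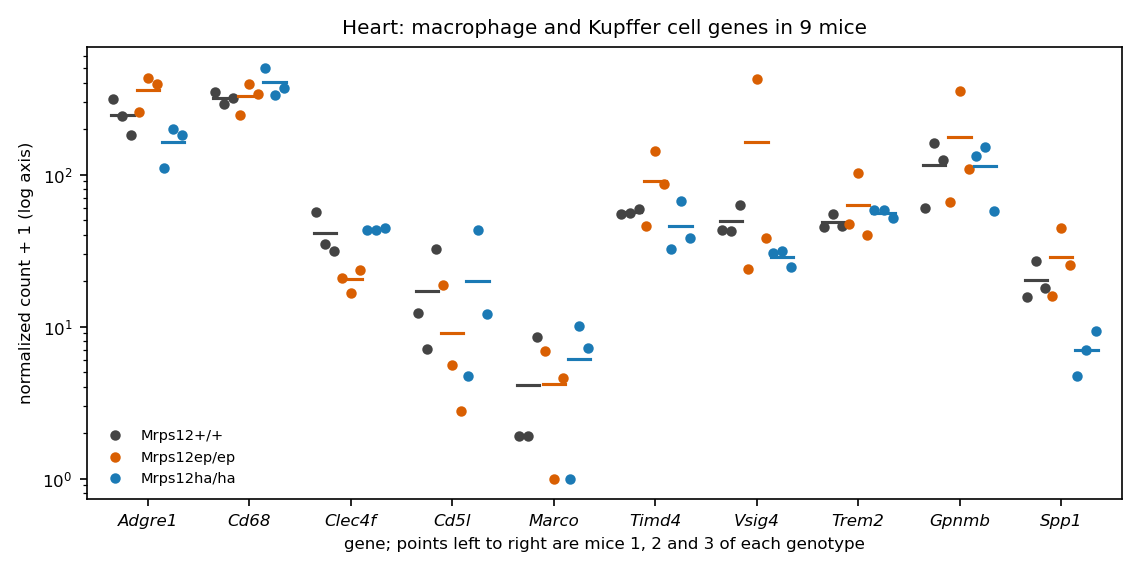
Normalized count + 1 of the 10 genes in the hearts of 9 mice on a log axis, 3 points per genotype from mouse 1 (left) to mouse 3 (right), with a bar at the arithmetic mean. Clec4f is lowest in the 3 Mrps12ep/ep hearts, Spp1 is lowest in the 3 Mrps12ha/ha hearts, and Vsig4 reaches 424.5 in Mrps12ep/ep heart 2.

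In the hearts the Kupffer cell genes did not follow one another. The 10 pairs had correlations of -0.63 to 0.81 with a median of -0.17, and several of the genes were at a few reads. Marco was at 0 to 9.1 normalized counts, 0 to 12 reads, with a mean under 10, and was not tested. Cd5l ran from 1.8 in Mrps12ep/ep heart 3, which was 2 reads, to 42.3 in Mrps12ha/ha heart 2. The hearts held unequal amounts of the hepatocyte gene Alb. Taking the Alb of each heart with the median ratio of Cd5l to Alb in the livers, hepatic RNA would bring 0.0976 to 14.75 normalized counts of Cd5l and 0.0108 to 1.629 of Marco. The measured Cd5l was at or under that level in 1 of 9 hearts and the measured Marco in 3 of 9. Marco was at 0 in Mrps12ep/ep heart 2 and Mrps12ha/ha heart 1, and 0 lies under any level so reckoned. For Clec4f the level so reckoned was at most 12.04 and no heart was at or under it, and at this median ratio none was for the other 7 members. At the highest ratio among the livers, which for Spp1 is that of wild-type liver 3, Spp1 was at or under the level in 5 of 9 hearts, Marco in 4 and Cd5l in 3. The part of hepatic RNA in the heart levels was not tested further.

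Clec4f, the lectin taken as specific to Kupffer cells, was the one member that set Mrps12ep/ep apart from wild-type hearts. It was at 56.0, 33.7 and 30.2 in wild-type hearts, 19.8, 15.7 and 22.7 in Mrps12ep/ep hearts, and 42.3, 42.3 and 43.6 in Mrps12ha/ha hearts. Every Mrps12ep/ep heart lay below the other 6, at 20 to 27 reads. Against wild type the log2 fold change was -0.97 (SE 0.32, 95% interval -1.70 to -0.24), with an unadjusted p of 0.0147 and an adjusted p of 1.0 in limma. The reads, 72 against 152, gave a ratio of 0.483 with an exact 95% interval for counting error of 0.36 to 0.643. All 6 hepatocyte markers had lower means in Mrps12ep/ep than in wild-type hearts as well (median -2.47), with sums of 10740, 116 and 792 against 13560, 3777 and 5641. Wild-type heart 1 had the highest Clec4f and the highest hepatocyte sum of these 6 hearts. Mrps12ep/ep heart 1 had the next highest sum, 10740, but its Clec4f of 19.8 lay below that of every wild-type heart. The part of hepatic RNA in the difference was not tested.

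For Vsig4, Trem2, Gpnmb and Cd68 the sign of the comparison with wild type turned without Mrps12ep/ep heart 2. Gpnmb also turned without wild-type heart 1. Cd68, with a log2 fold change of only 0.01, also turned without wild-type heart 2 or Mrps12ep/ep heart 3. Vsig4, the complement receptor, was at 22.8, 424.5 and 37.2 in Mrps12ep/ep hearts and at 42.2, 41.5 and 61.6 in wild-type hearts. Its log2 fold change of 0.58 (95% interval -1.39 to 2.56) became -0.69 without Mrps12ep/ep heart 2. The same heart had the highest Adgre1 (433.2), Timd4 (140.9), Trem2 (100.9), Gpnmb (352) and Spp1 (43.5) of all 9, and its Csf1r of 2400.8 compared with 983 to 1573.8 elsewhere. It also held the highest sums of atrial markers (332800), mesothelium markers (2836) and fibroblast markers (66630), whose part was not tested. Of the 9 members tested 7 were higher and 2 lower in Mrps12ep/ep hearts, with a median of 0.35 against -0.01 over all genes, and without heart 2 it was 3 and 6, with a median of -0.14. Over 16057 genes 0% passed the adjusted threshold and 1.69% had an unadjusted p under 0.05, beside 0 and 1 members. The groups stood apart upwards in 4.40% and downwards in 3.64% of genes, beside 0 and 1 members.

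The wider macrophage genes leaned upwards in Mrps12ep/ep hearts. All 20 of the list had higher means than in wild-type hearts (median difference 0.32 on the log2 scale), and 3 had an unadjusted p under 0.05, but 0 passed the adjusted threshold in limma. Without Mrps12ep/ep heart 2 it was 17 of 20 with a median of 0.18. Mpeg1, a pore-forming protein of macrophages, had the lowest p, at 547.6 ± 64.5 against 345.2 ± 47.4 (0.67, SE 0.19, unadjusted p 0.00696 and adjusted p 1.0 in limma), each Mrps12ep/ep heart above each wild-type heart. Among 5 genes of cardiac resident macrophages 4 were higher, with a median of 0.09. Of 7 genes of serous cavity macrophages, listed after the values were seen, 3 were higher and 4 lower (median -0.16).

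In Mrps12ha/ha hearts Spp1, osteopontin, was at 3.7, 6.0 and 8.3, against 14.6, 26 and 17 in wild-type and 14.9, 43.5 and 24.5 in Mrps12ep/ep hearts. All 3 Mrps12ha/ha hearts lay below the 6 others, but they rest on 2, 2 and 12 reads. The log2 fold change against wild type was -1.54 (SE 0.51, 95% interval -2.70 to -0.39), with an unadjusted p of 0.014 and an adjusted p of 0.213 in limma. The pooled reads, 16 against 74, gave a ratio of 0.364 (exact 95% interval 0.198 to 0.631, counting error only). Markers of the mesothelium, the cell layer that covers the heart, moved with it, in a list chosen after the values were seen. Their sum was 306.4 to 511.7 in Mrps12ha/ha hearts, 852.6 to 1748 in wild-type hearts and 621 to 2836 in Mrps12ep/ep hearts, and 5 of 5 of these markers had lower means than in wild type (median log2 fold change -3.44). Atrial markers summed to 4551 to 10280 in Mrps12ha/ha and to 8100 to 162700 in wild-type hearts. In Mrps12ep/ep hearts 1 to 3 they summed to 1681, 332800 and 92950. At the highest Spp1 to Alb ratio of the livers, the levels reckoned from Alb were 5.84, 40.39 and 10.59 in the Mrps12ha/ha hearts. All 3 hearts were at or under these levels, as were wild-type heart 1 and Mrps12ep/ep heart 1 under theirs. At the median ratio none was. Adipocyte markers summed to 17.2 to 60.4 in Mrps12ha/ha and to 37.9 to 14610 in wild-type hearts, with 5 of 5 lower (median -3.75). In Mrps12ep/ep hearts 1 to 3 they summed to 5.0, 1551 and 40.8. Mrps12ep/ep heart 1 thus had the lowest atrial and adipocyte sums of all hearts, with Spp1 at 14.9. Whether hepatic RNA or the piece of tissue taken had a part in the level of Spp1 was not tested.

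Vsig4 was also lower in each Mrps12ha/ha than in each wild-type heart, at 29.5, 30.2 and 23.5. As Mrps12ep/ep heart 2 widens the shared spread, its log2 fold change of -0.77 had an interval of -2.75 to 1.21 and an adjusted p of 0.62 in limma. Adgre1 had -0.60 (-1.28 to 0.08), Timd4 -0.37, Cd68 0.32 and Trem2 0.21, and Gpnmb -0.02 and Cd5l -0.06. The median of the 9 members was -0.06, with 3 higher and 6 lower, and the 20 macrophage genes split into 13 higher and 7 lower with a median of 0.05. Ccr2, which marks macrophages from monocytes, was at 159.2 ± 18.5 in Mrps12ha/ha and 87.77 ± 27.5 in wild-type hearts, all above (0.89, adjusted p 0.214 in limma). Of the genes tested 0.0311% passed the threshold and 19.7% had an unadjusted p under 0.05, beside 0 and 1 members. All Mrps12ha/ha hearts were above wild type in 11.1% of genes and below in 10.0%, beside 0 and 2 members. When limma gave each heart a weight Spp1 passed, with an adjusted p of 0.0307, but so did 34.7% of all genes.

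Between the mutants, 3 of 9 members had hearts that did not overlap and an unadjusted p under 0.05, with 17.9% of all genes under that p. Adgre1 was at 108.6, 199.3 and 181.2 in Mrps12ha/ha hearts and at 255.6, 433.2 and 391.4 in Mrps12ep/ep hearts. All the former lay below all the latter, and wild-type hearts at 313.5, 241.4 and 180.5 overlapped both. The log2 fold change was -1.15 (SE 0.30, 95% interval -1.83 to -0.47), with an adjusted p of 0.234 in limma. Spp1 had -1.96 (SE 0.51, interval -3.11 to -0.81) with 16 against 117 reads, and the adjusted p was 0.234 in limma. Clec4f went the other way, at 42.73 ± 0.751 in Mrps12ha/ha and 19.4 ± 3.52 in Mrps12ep/ep hearts, a log2 fold change of 1.11 (interval 0.38 to 1.84, adjusted p 0.237 in limma). Timd4, the phosphatidylserine receptor, was at 31.3, 66.4 and 37.3 against 44.6, 140.9 and 85.4, which overlap (-0.92, adjusted p 0.288 in limma).

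Over all genes of this last comparison 0.0249% passed the threshold, beside 0 members. Mrps12ha/ha hearts were all above Mrps12ep/ep hearts in 8.77% of genes, beside 1 member, and all below in 7.82%, beside 2. With a weight for each heart Adgre1, Clec4f, Timd4 and Spp1 passed, with adjusted p-values of 0.00458, 0.0223, 0.0124 and 0.0107 in limma, and 39.3% of all genes passed too. Without Mrps12ha/ha heart 2, the shallowest, Adgre1 (adjusted p 0.0243) and Spp1 (0.0389) passed, beside 23.2% of all genes. These calls thus came where a large share of all genes was called. Of the 20 macrophage genes 19 were lower in Mrps12ha/ha than in Mrps12ep/ep hearts, with a median of -0.39, 5 of them with an unadjusted p under 0.05 and 0 with an adjusted one in limma. It was 16 with a median of -0.17 without Mrps12ep/ep heart 2. Siglec1, the sialic acid receptor sialoadhesin, had the lowest p, at 103.2 ± 8.78 against 172.2 ± 21.4 (-0.73, adjusted p 0.234 in limma), all below.

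**Figure D4:**
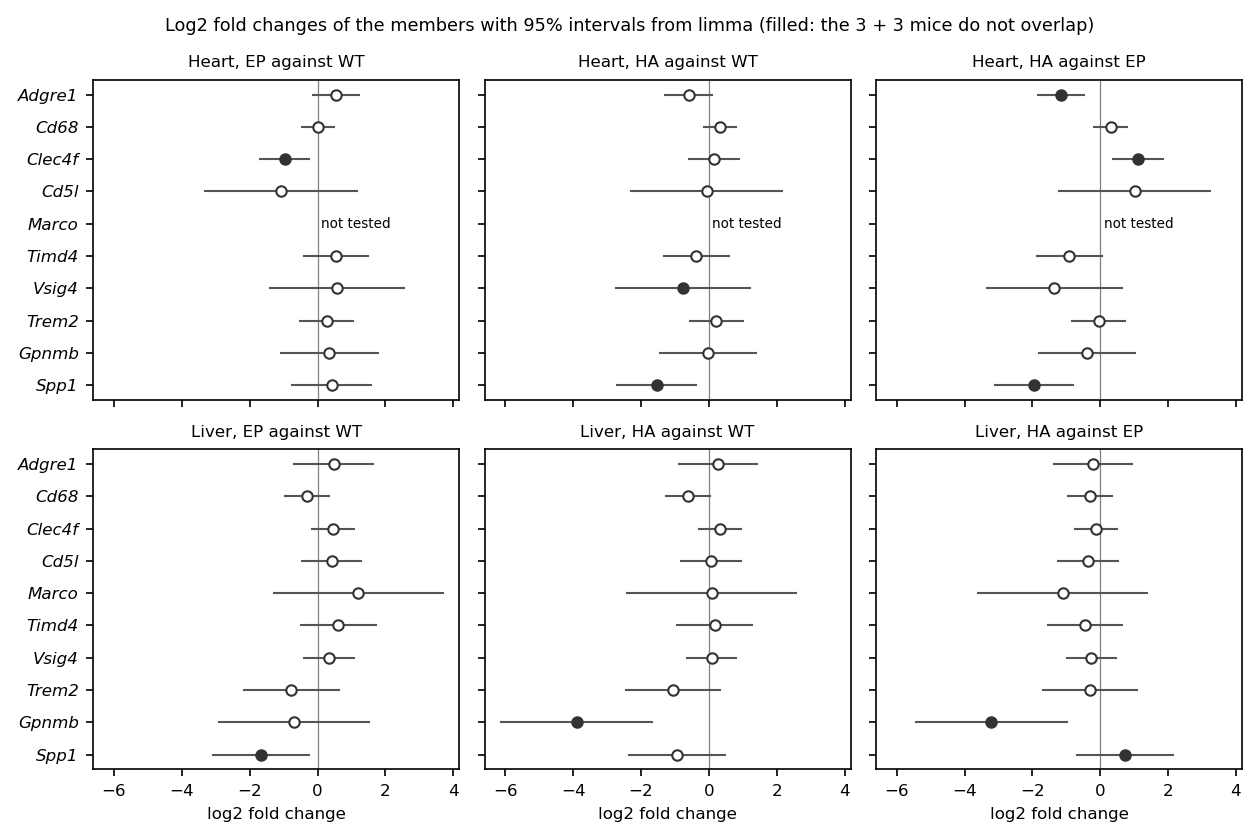
Log2 fold change of each gene in the 6 comparisons (EP, Mrps12ep/ep; HA, Mrps12ha/ha; WT, Mrps12+/+) with its 95% interval from limma, filled where the 3 + 3 mice do not overlap. Intervals that leave out 0 belong to Clec4f, Adgre1 and Spp1 in hearts and to Gpnmb and Spp1 in livers, and none of these had an adjusted p under 0.05.

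The genes most like the lipid-associated members over the 9 hearts were Spon1 (r = 0.983), Fzd2, a Wnt receptor (0.967), Serpinf1 (0.963), Rtn4rl1 (0.963) and Scd2 (0.962), a pattern carried by Mrps12ep/ep heart 2. Those most like the 4 Kupffer cell genes tested there were Gm28661 (0.943), Gm28900 (0.928), Arpp21 (0.925), Clip3 (0.922) and Ptpn14 (0.901), among which is no known macrophage gene. In the liver 2 of the 5 genes most like the Kupffer cell level, Csf1r and Lyz2, belong to the list of macrophage genes. The precision that 3 mice per genotype gave the members differed widely, as the 95% intervals of their log2 fold changes were between 0.95 and 4.98 wide.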

How the data were processed

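RNA was sequenced from the hearts and livers of 9 mice. The authors trimmed reads with Trim Galore 0.4.1 and cutadapt 1.18, quantified transcripts with Salmon 1.1.0 on GENCODE vM21 (GRCm38.p6) and deposited counts normalized with DESeq2 in each tissue, without mitochondrial transcripts. The labels list 54 libraries, 3 technical libraries per mouse and tissue, and the tables have a column per mouse and tissue, taken as their pool. The labels do not tie a heart to a liver. The authors' own tables of fold changes and p-values were not used.

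All low values checked (100.0%) were whole multiples of a step, within 0.06, and the step was taken as 1 read. Log2(normalized count + 1) was fitted with limma 3.58.1 (lmFit and eBayes with trend, R 4.3.3), the 9 mice of a tissue in 1 fit, over genes with a mean of at least 10. Benjamini-Hochberg adjustment covered all genes tested, with a threshold of 0.05. The fit was tested on simulated data. Ratios of pooled reads have exact conditional binomial intervals (scipy 1.17.1). Alternatives were other pseudocounts and filters, quantile normalization, re-centring, array weights, only the genotypes compared, a replicate block, leaving out each mouse and, added after seeing the data, limma-voom 3.58.1 on the recovered reads. The members and lists were chosen with earlier results of these data known. Named are the members, Mrps12 and marker genes, per list and comparison the gene with the lowest p, and per pattern the 5 genes with the highest correlation. The lists of mesothelium, adipocyte and serous cavity macrophage genes were added after the data were seen.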

Additional observations from a re-analysis of the deposited data

Results flagged for a closer look

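Spp1 was flagged because its difference between Mrps12ha/ha and Mrps12ep/ep mice pointed in opposite directions in the 2 tissues. In the heart its log2 fold change was -1.96, with each Mrps12ha/ha heart below each Mrps12ep/ep heart, and in the liver it was 0.73, with each Mrps12ha/ha liver above each Mrps12ep/ep liver. The difference between the tissues was not tested, since they were normalized apart and the labels do not tie a heart to a liver. The Mrps12ha/ha hearts rest on 16 reads in all.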

How the results depend on the processing

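Of the log2 fold changes of members under the alternatives, 851 kept direction and side of the threshold, 45 changed sign and 7 newly passed it; of the counts of members called 93 stayed and 3 rose, and of the medians 85 stayed and 11 moved. With array weights the Mrps12ep/ep against wild-type hearts had a median of -0.125, Vsig4 -0.174, Trem2 -0.166 and Gpnmb -0.125. The same setting called 1 member in Mrps12ha/ha against wild-type hearts (median -0.514) and 4 against Mrps12ep/ep hearts, where Trem2 was at 0.286. In Mrps12ha/ha against wild-type hearts Cd5l was at 0.025 with a pseudocount of 8 and 0.174 with quantile normalization, and Gpnmb at 0.013 with re-centring. With limma-voom the median of Mrps12ha/ha against Mrps12ep/ep hearts was -0.805, and Marco in Mrps12ha/ha against wild-type livers was -0.166. The causes were not tested.

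Leaving out 1 mouse at a time gave these ranges. In Mrps12ep/ep against wild-type hearts the median ran from -0.142 (without Mrps12ep/ep heart 2) to 0.778 (without heart 1), Gpnmb from -0.332 to 0.873, Cd68 from -0.139 to 0.198, Vsig4 from -0.689 to 1.391 and Trem2 from -0.142 to 0.531. In Mrps12ha/ha against wild-type hearts the median ran from -0.685 to 0.016, Gpnmb from -0.434 to 0.407, Clec4f from -0.024 to 0.41 and Cd5l from -0.903 to 0.698. Between the mutant hearts the median and Gpnmb ran from -0.897 to 0.308, Trem2 from -0.317 to 0.356 and the members called from 0 to 2 (without Mrps12ha/ha heart 2). In livers, Gpnmb in Mrps12ep/ep against wild type ran from -1.388 to 0.269. In Mrps12ha/ha against wild type the median ran from -0.461 to 0.467, Adgre1 from -0.108 to 0.843, Cd5l from -0.293 to 0.539, Marco from -0.899 to 1.261, Timd4 from -0.211 to 0.716 and Vsig4 from -0.204 to 0.396. Between the mutant livers Trem2 ran from -0.756 to 0.158, Adgre1 from -0.587 to 0.153 and Clec4f from -0.332 to 0.057.

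With the replicate number as a block 0 members were past the threshold in all 6 comparisons, and the medians were the same, 0.354, -0.063, -0.378, 0.378, 0.071 and -0.297. The medians and fold changes could not differ here, since every genotype has a mouse of each number. These fits are nevertheless counted above among the alternatives that kept direction. Hearts with the same number deviated with a correlation of -0.231 to 0.578 and livers of -0.133 to 0.164. For different numbers the ranges were -0.593 to 0.345 and -0.289 to 0.161. Whether the numbers pair the mice cannot be told from these ranges. The planned edgeR and DESeq2 fits were not run, since the deposited values are normalized counts and not reads. The recovered reads were fitted with limma-voom only. Depth limits Spp1, Cd5l and Marco in the heart and Gpnmb in Mrps12ha/ha livers most. The replicates are separate mice.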

Other observations

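The ratio of Adgre1 to Cd68, the members that mark macrophages in general, was looked at in the hearts after the values were seen and is given without a test. Adgre1 was at 90.35%, 83.3% and 57.17% of Cd68 in wild-type hearts, 103.6%, 110% and 116.8% in Mrps12ep/ep hearts, and 21.53%, 59.99% and 48.79% in Mrps12ha/ha hearts. Each Mrps12ep/ep heart was thus above the other 6 hearts. Mrps12ha/ha heart 1 had both the lowest Adgre1 (108.6 normalized counts) and the highest Cd68 (504.4) of the 9 hearts. Erythroid genes summed to 332200 in that heart and 1021000 in Mrps12ha/ha heart 3, against 64000 to 163400 in the other 7.

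Clec9a, a receptor of dendritic cells for dead cells, was higher in Mrps12ha/ha than in wild-type hearts without passing the adjusted threshold. It was at 29.8 ± 4.35 (SD, n = 3) against 9.733 ± 4.65 normalized counts, a log2 fold change of 1.61 (adjusted p 0.191 in limma). Every Mrps12ha/ha heart lay above every wild-type heart, as in 11.1% of all genes tested. Of the 4 dendritic cell markers tested in these hearts 3 were higher and 1 lower (median 0.56). In Mrps12ha/ha against wild-type livers 1 was higher and 5 were lower (median -0.81). In the liver, Stab2, the hyaluronan receptor of sinusoidal endothelium, was at 2652 ± 160 in Mrps12ha/ha and 1918 ± 140 in wild-type mice, all above (0.47, adjusted p 0.106 in limma). There 10.0% of all genes tested were above in the same way.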
